A study of Mus musculus with 2 samples.

Results

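The 35 genes described here encode the route of glucose from uptake through glycolysis to lactate export, together with subunits, regulators and targets of the hypoxia-inducible factors (HIFs). They were taken by symbol, and all 35 were found among the 23183 gene symbols listed. The list was drawn up with the FPKM of these same libraries in view, so in effect its members were selected on that difference, and their values are given below as a description. RNA was sequenced from mouse cavernous endothelial cells (MCECs), primary cultures grown out of the penis of male C57BL/6J mice, with 1 library for each of 2 conditions. HG+HBS cells were kept in high glucose (30 mM) and given the vehicle, HEPES-buffered saline. HG+PC-NVs cells were kept in the same glucose and given 1 µg/mL of nanovesicles extruded from cultured mouse cavernous pericytes, the mural cells of small vessels. By the methods, RNA was taken after 72 hours in glucose, the last 24 of them with nanovesicles, whereas the sample labels give 5 days of glucose. With a single culture per condition there is no replicate check, and no p-value is given. Pairs of values below give HG+HBS first and HG+PC-NVs second. A culture in normal glucose was not analysed here.

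Glycolysis splits glucose into pyruvate in the cytosol. Its early enzymes spend ATP to phosphorylate and cleave the sugar, and its later enzymes recover ATP and NADH. Lactate dehydrogenase then regenerates NAD+ by turning pyruvate into lactate, which leaves the cell through monocarboxylate transporters. Endothelial cells are known to draw most of their ATP from this route even when oxygen is present. HIF-1 and HIF-2 are heterodimers of an oxygen-labile alpha subunit and the stable subunit ARNT. With oxygen, prolyl hydroxylases mark the alpha subunit for degradation through the von Hippel-Lindau protein. Without it, the dimer binds DNA at a short core, ACGTG or GCGTG, and activates genes of glucose uptake, glycolysis, acid handling, mitophagy and matrix hydroxylation.

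The deposited values are log2(normalized FPKM + 1) for 33299 transcript rows, without transcript names. For each symbol the rows were converted back and summed, which joined 59 rows into the 35 members. FPKM is per length of transcript, so levels of different genes can be compared. The files hold no read counts, but the spacing of the low values gives estimated depths of 13300000 and 11600000 fragments. From this, the members rest on about 17 to 41088 and 20 to 46315 fragments. The 95% intervals below are Wilson intervals for this counting error only. The log2 ratio is that of log2(FPKM + 1), HG+PC-NVs minus HG+HBS, and a ratio past 1.5-fold on that scale is called higher or lower. Calls were made over genes with a mean of at least 1 FPKM in the 2 libraries, which 34 members passed.

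The cultures were checked against cell markers, since the levels below come from whatever cells they held. The paper describes extracellular vesicles as carrying mRNA. Any RNA brought by the nanovesicles would be part of the HG+PC-NVs levels and was not measured separately. Of 16 endothelial markers, 10 and 12 were listed under 1 FPKM. Their summed level was 65.9 and 51.0 FPKM, and most of it came from Eng, Esam and Egfl7. Vwf was listed at 0.158 and 0.128 FPKM and Pecam1 at 1.05 and 0.938 FPKM, so these defining endothelial markers were low in both cultures. Cdh5, a further endothelial marker, was listed at 5.05 and 5.73 FPKM. All 10 fibroblast markers were at 1 FPKM or more in both libraries, with a summed level of 2209 and 2498 FPKM, Dcn and Thy1 leading. The 12 pericyte and smooth muscle markers summed to 122 and 96.0 FPKM. They went both ways, with Rgs5 higher (1.69 and 7.23 FPKM) and Acta2 lower (27.6 and 8.02 FPKM) in HG+PC-NVs. The 11 myeloid markers summed to 368 and 592 FPKM. Of these, 3 were higher by 1.5-fold and 0 lower, namely Cd14 (36.6 and 252 FPKM), Adgre1 (7.44 and 42.5 FPKM) and Aif1 (2.93 and 12.9 FPKM). Over all 11828 genes with a mean of at least 1 FPKM, 5.47% were higher and 3.64% lower by 1.5-fold. The other myeloid markers lay within 1.5-fold, the most abundant, Lyz2, with 212 and 193 FPKM. Of the epithelial and Schwann cell markers only Krt18 and S100b had a mean of at least 1 FPKM, and 3 of the 7 epithelial markers were listed at 0 in both libraries. The part of these markers in the results below was not tested. In bulk RNA, fewer cells of a type and less RNA per cell cannot be told apart.

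Across the members, most levels were higher in HG+PC-NVs. Of the 35 members, 28 were higher and 7 lower by any amount. Among the 34 that passed the filter, 28 were higher and 6 lower. The share higher was thus 82.4%, against 48.4% of all genes with a mean of at least 1 FPKM. By 1.5-fold, 16 of the 34 that passed the filter were higher, or 47.1%, and 1 was lower. The same calls took in 5.47% of the 11828 genes with a mean of at least 1 FPKM as higher and 3.64% as lower. By 2-fold, 7 members were higher and 0 lower, against 2.47% and 0.829% of all those genes. The median log2 ratio of the members was 0.58 and that of all genes -0.01. Since the members were chosen with these values known, these counts describe the list and support nothing further. Egln3 and Car9 were under 1 FPKM in HG+HBS and passed the filter through HG+PC-NVs. Of the 32 other members that passed, 14 were higher and 1 lower, with a median of 0.53. Highly expressed genes as a group leaned the same way by much less. Of the 795 genes with a mean of at least 100 FPKM, 9.94% were higher and 2.01% lower by 1.5-fold, and 4.65% and 0.755% by 2-fold, with a median of 0.06. Of the 10 members at that level, 3 were higher and 0 lower by 1.5-fold, Ldha was higher by 2-fold, and the median was 0.45.

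The 1.5-fold limit ran through a run of members. Pgam1 (0.57) and Pfkfb3 (0.58) lay just under it, and Slc2a1 (0.59) and Ndrg1 (0.62) just over it. Scaling by the median log2 ratio of 12 housekeeping genes lowered every ratio by 0.12. This left 14 members higher and 1 lower by 1.5-fold, and 3 instead of 7 higher by 2-fold. Over all genes, that scaling turned the balance from 647 higher and 430 lower to 482 higher and 730 lower.

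**Figure D1:**
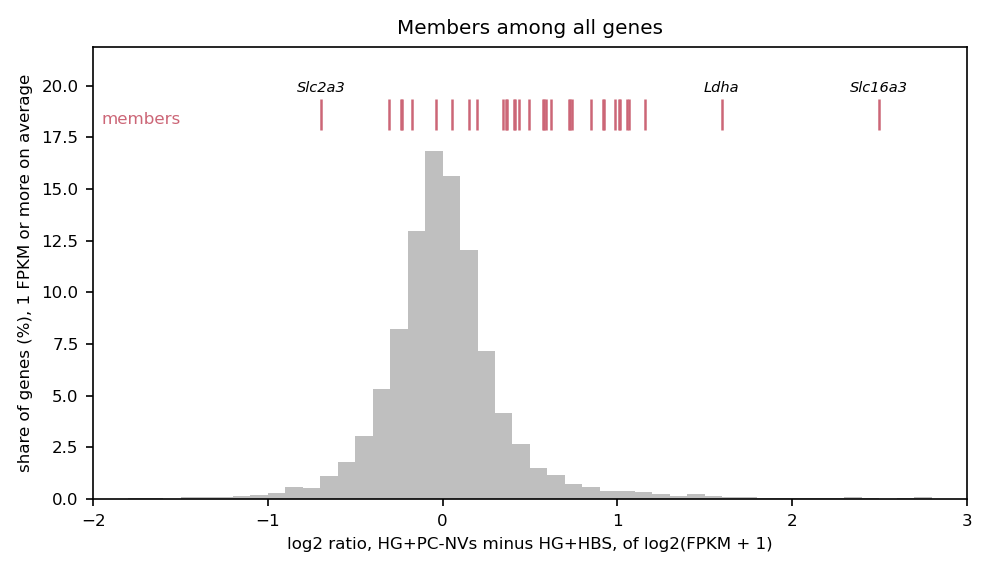
Distribution of the log2 ratio over all genes with a mean of at least 1 FPKM (grey bars, share of genes in %, bins of 0.1 between -2 and 3) with the 34 members that passed the filter as ticks above. Most ticks sit to the right of the bulk of genes, with Slc2a3 at -0.69 as the lowest and Ldha at 1.60 and Slc16a3 at 2.50 as the highest.

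Glycolysis was examined step by step, with the member isoforms of a step summed. All 15 steps, from uptake to lactate export and pyruvate dehydrogenase kinase, had a higher summed level in HG+PC-NVs. The ratios of the FPKM ran from 1.11 at hexokinase to 6.81 at lactate export. Only 4 steps passed 1.5-fold, which were phosphoglycerate kinase, lactate dehydrogenase, lactate export and pyruvate dehydrogenase kinase. The last of these is represented by Pdk1 alone, and all 4 kinase genes together had a ratio of 0.995. The 16 enzyme genes from hexokinase to lactate dehydrogenase summed to 5155 and 7617 FPKM, or 0.988% and 1.31% of the summed FPKM of the library. The total over all genes was itself 1.11 times higher in HG+PC-NVs. The steps of hexokinase and glucose-6-phosphate isomerase did not exceed that total. Hexokinase made up 0.01225% and 0.01219% of it, and glucose-6-phosphate isomerase 0.03426% in both libraries.

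**Figure D2:**
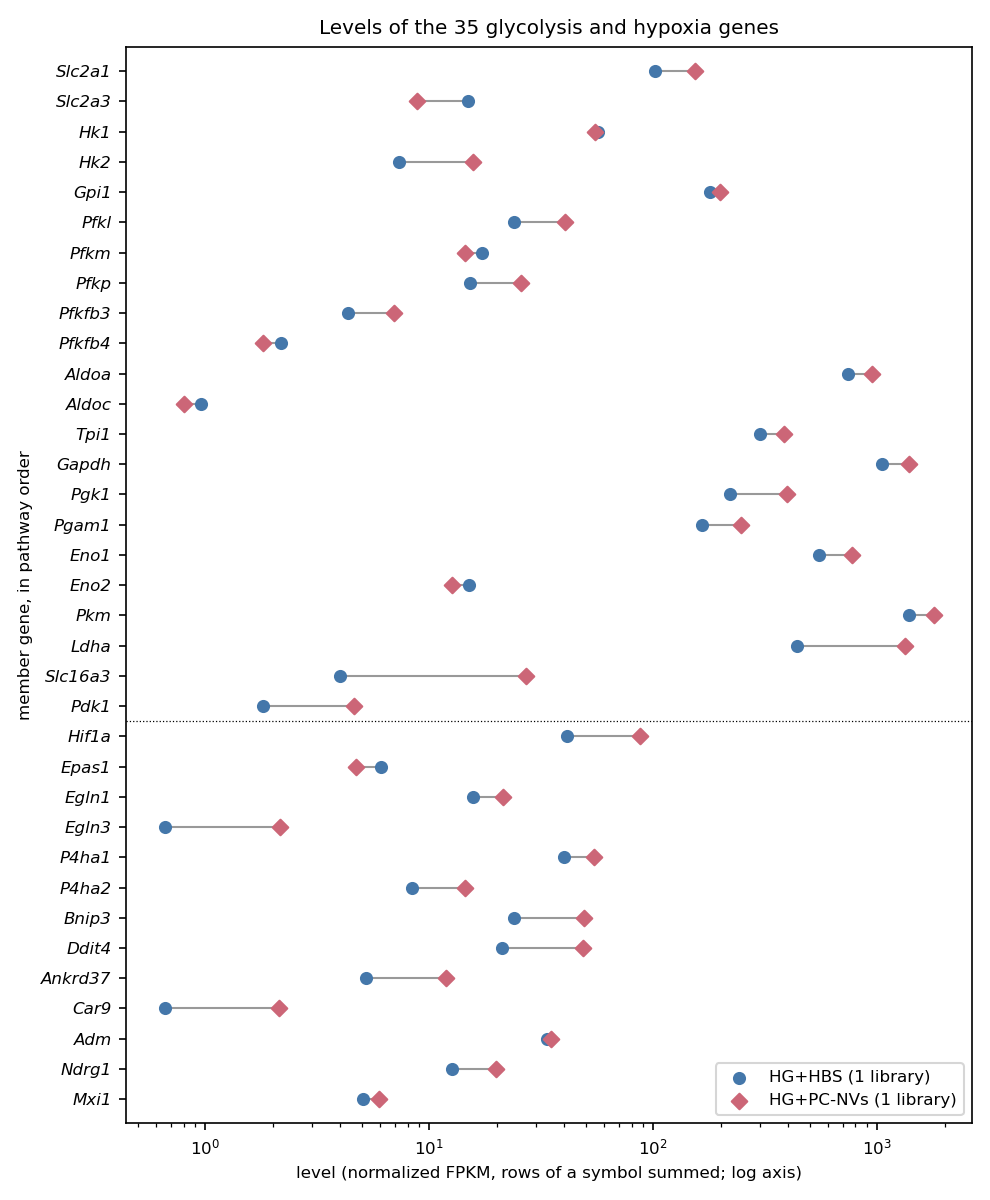
Level of each member in normalized FPKM (log axis) in HG+HBS (circles) and HG+PC-NVs (diamonds), 1 library each, in pathway order, with HIF subunits, hydroxylases and further targets under the dotted line. Glycolytic enzymes such as Pkm (1379.9 and 1785 FPKM) sit at the top of the range, and the widest gap is that of Slc16a3, followed by those of Egln3, Car9 and Ldha.

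Glucose enters through facilitative transporters. Slc2a1 (chromosome 4 of GRCm38, 119108711 to 119137983), which encodes the widely used transporter GLUT1, had 102 and 154 FPKM. The ratio was 1.51 (95% counting interval 1.45 to 1.57). Slc2a3 encodes GLUT3, a transporter of high affinity best known from neurons. It had 14.8 and 8.79 FPKM, a ratio of 0.592 (0.526 to 0.669), and was the only member lower by 1.5-fold. The transporters thus went opposite ways, and the share of Slc2a1 in their summed FPKM was 87.3% and 94.6%.

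Hexokinase traps glucose in the cell as glucose 6-phosphate. Hk1, the isoform found in most tissues, had 56.6 and 55.0 FPKM, a ratio of 0.973 (0.921 to 1.03) whose interval holds 1. Hk2 (chromosome 6, 82725025 to 82774454), the isoform known as insulin- and hypoxia-responsive, had 7.33 and 15.8 FPKM, a ratio of 2.15 (1.91 to 2.43). The summed level of the step thus differed little while its makeup did not stay alike, with Hk2 at 11.5% (95% counting interval 10.5 to 12.6) and 22.3% (20.9 to 23.7). Gpi1, which converts glucose 6-phosphate to fructose 6-phosphate, had 179 and 199 FPKM, among the smallest differences of the pathway.

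Phosphofructokinase commits the sugar to glycolysis and is encoded by 3 genes. Pfkl, the liver-type subunit, had 23.8 and 40.4 FPKM, a ratio of 1.70 (1.58 to 1.83). Pfkp, the platelet-type subunit, had 15.2 and 25.8 FPKM, also a ratio of 1.70 (1.54 to 1.87). Pfkm, the muscle-type subunit, had 17.2 and 14.4 FPKM, a ratio of 0.840 (0.745 to 0.945). Pfkm thus went from the second to the lowest of the 3 subunits, with 30.6% and 17.9% of their FPKM. The bifunctional PFKFB enzymes set the level of fructose 2,6-bisphosphate, which activates phosphofructokinase. Pfkfb3, the isoform known for its role in endothelial sprouting, had 4.33 and 6.96 FPKM, and Pfkfb4 had 2.17 and 1.81 FPKM. Both rest on few fragments, about 123 and 172 for Pfkfb3 and 98 and 71 for Pfkfb4. The interval of the ratio was 1.27 to 2.02 for Pfkfb3 and 0.608 to 1.12 for Pfkfb4. Pfkfb3 is also spread over 8 rows, of which 1 carried 73.6% and 84.5% of its FPKM.

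**Figure D3:**
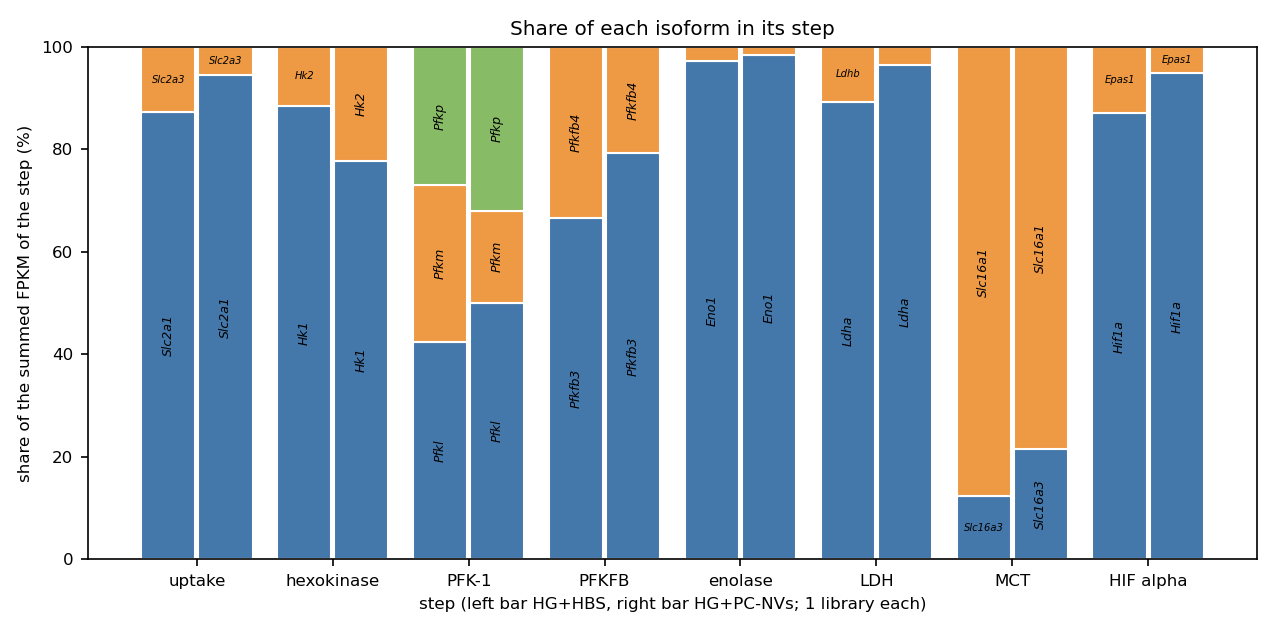
Share of each isoform in the summed FPKM of its step (%, stacked bars; left bar HG+HBS, right bar HG+PC-NVs; 1 library each), for uptake, hexokinase, phosphofructokinase (PFK-1), PFKFB, enolase (unlabelled top Eno2), lactate dehydrogenase (LDH, unlabelled top of the right bar Ldhb), monocarboxylate transporters (MCT) and HIF alpha subunits. Hk2 widens from 11.5% to 22.3%, Pfkm narrows from 30.6% to 17.9%, and Epas1 narrows from 12.9% to 5.13%.

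The enzymes that cleave and interconvert the triose phosphates were among the most abundant messages. Aldoa, the main aldolase, had 739 and 951 FPKM, and Aldoc, an isoform best known from brain, only 0.960 and 0.802 FPKM, the single member that failed the filter. Tpi1, triose-phosphate isomerase, had 301 and 383 FPKM. The ratios were 1.29 (1.26 to 1.32) for Aldoa and 1.27 for Tpi1, close to that of Pkm below.

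From glyceraldehyde 3-phosphate to pyruvate, the differences were larger in the middle of the sequence than at its ends. Gapdh, which makes NADH, had 1049.6 and 1392 FPKM, a ratio of 1.33. Pgk1 (chromosome X, 106187100 to 106203699), the phosphoglycerate kinase that makes ATP, had 219 and 395 FPKM. Its ratio of 1.80 (1.74 to 1.87) was the largest of the enzyme genes between the hexokinases and lactate dehydrogenase. Pgam1, phosphoglycerate mutase, had 165 and 246 FPKM, a ratio of 1.49 (1.43 to 1.56). Eno1, the ubiquitous enolase, had 548 and 771 FPKM, while Eno2, the neuronal-type enolase, had 15.1 and 12.6 FPKM. Eno1 and Eno2 thus went opposite ways, though Eno1 made up 97.3% and 98.4% of their FPKM. Pkm, pyruvate kinase, was the most abundant member at 1379.9 and 1785 FPKM, a ratio of 1.29 (1.28 to 1.31), and ranked 49 and 37 among all genes. Its 2 rows kept their balance, the larger holding 69.6% and 70.5% of the FPKM. The rows have no transcript names, so they cannot be assigned to the M1 and M2 forms of the enzyme.

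Several of these genes have processed pseudogenes or close copies in the mouse genome, and how the authors' alignment placed shared reads is not given in the sources used here. Their values carry that uncertainty. Eno1b, a copy of Eno1 listed under its own symbol, held 1.34% and 1.46% of the FPKM of Eno1, Eno2, Eno3 and Eno1b together. Gapdh had a further row at 0.00561 and 4.98 FPKM, under 1% of its level in either library.

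The end of the pathway, where pyruvate becomes lactate and leaves the cell, held the largest differences of the list on the log2(FPKM + 1) scale, at 2.50 for Slc16a3 and 1.60 for Ldha. Ldha (chromosome 7, 46841475 to 46855627), the lactate dehydrogenase subunit that favours lactate production, had 439 and 1329.9 FPKM, a ratio of 3.03 (2.96 to 3.10). It went from rank 164 to rank 64 among all genes, and all 3 of its rows were higher. Ldhb, the heart-type subunit, is no member but completes the enzyme. It had 52.4 and 49.3 FPKM, so Ldha was 89.3% and 96.4% of the pair. Slc16a3 (chromosome 11, 120948480 to 120960868), which encodes MCT4, the lactate exporter of strongly glycolytic cells, had 3.99 and 27.1 FPKM. The ratio of 6.81 (5.62 to 8.19), from about 126 and 750 fragments, was the largest of the 35. Its 2 expressed rows were both higher, at 3.15 and 21.4 FPKM and at 0.832 and 5.72 FPKM. The more abundant transporter was MCT1, encoded by Slc16a1 outside the list, with 28.6 and 98.9 FPKM and a ratio of 3.46 (3.27 to 3.66). Together they had 32.6 and 126 FPKM, of which Slc16a3 made up 12.2% and 21.5%. Bsg, which encodes their chaperone basigin, had 629 and 755 FPKM.

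Pyruvate dehydrogenase kinases hold pyruvate back from the mitochondria by inactivating pyruvate dehydrogenase. Pdk1, the member known as a HIF target, had 1.82 and 4.59 FPKM, a ratio of 2.53 (2.04 to 3.10). Pdk2, outside the list, had 9.51 and 5.55 FPKM. The 4 kinase genes together had 20.3 and 20.2 FPKM, so their total hardly differed while the share of Pdk1 was 8.97% and 22.8% and that of Pdk2 46.9% and 27.5%.

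**Figure D4:**
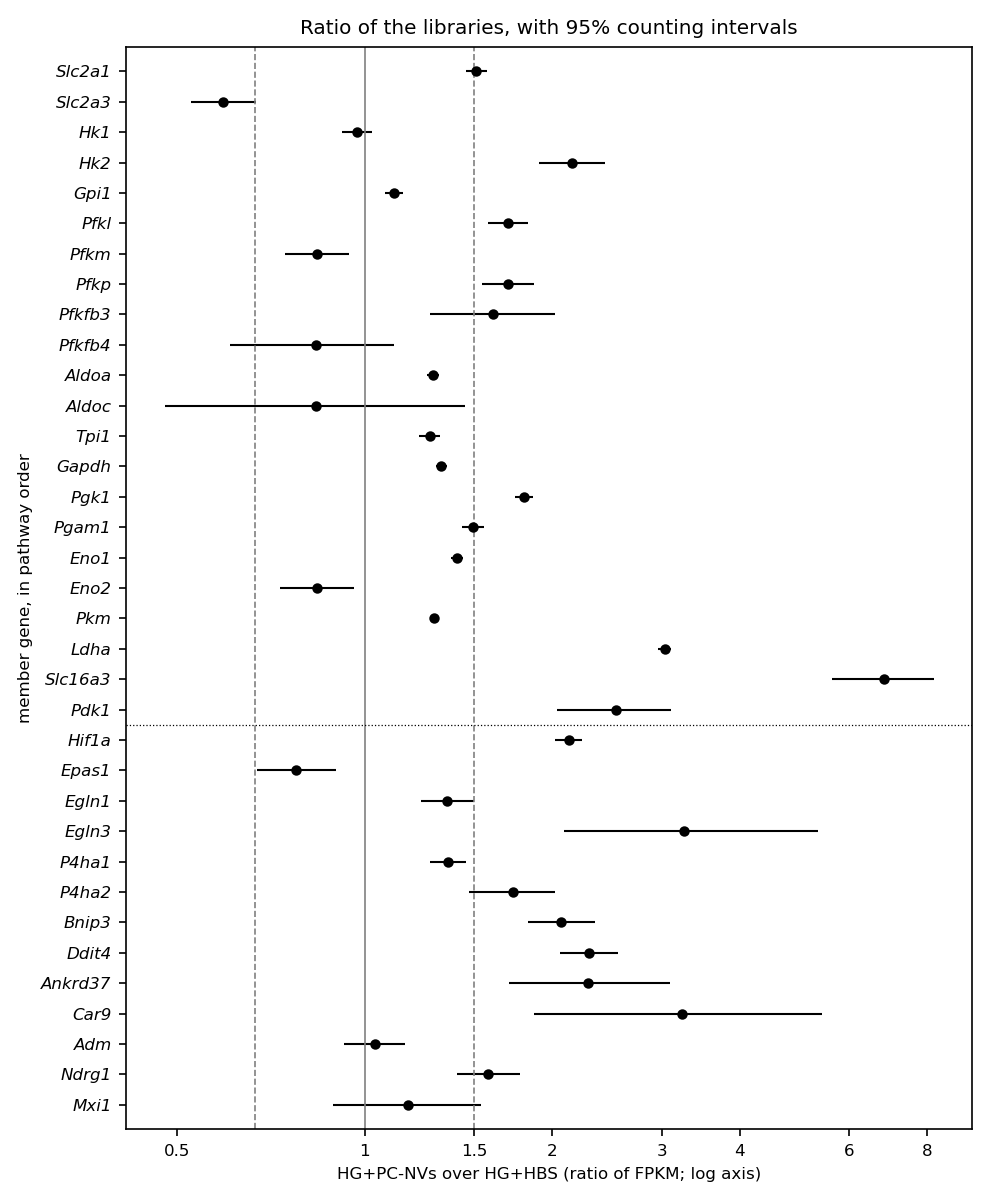
Ratio of the FPKM of each member, HG+PC-NVs over HG+HBS (log axis; no pseudocount), with 95% Wilson intervals for counting error as horizontal bars; the solid line marks 1 and the dashed lines 1.5-fold in either direction. The intervals of 26 members lie wholly above 1, those of 4 (Slc2a3, Pfkm, Eno2 and Epas1) wholly below it, and those of 5 hold 1.

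The alpha subunits of the HIFs differed in direction. Hif1a (chromosome 12, 73901375 to 73947530) had 41.2 and 87.5 FPKM, a ratio of 2.13 (2.02 to 2.23). Epas1, which encodes HIF-2 alpha, a subunit prominent in endothelium, had 6.09 and 4.73 FPKM, a ratio of 0.776 (0.672 to 0.900). Hif1a was thus 87.1% and 94.9% of the pair. HIF alpha subunits are controlled mostly at the protein level, which was not measured in these libraries.

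The HIF prolyl hydroxylases of the list are themselves known HIF targets. Egln1 (PHD2), the main oxygen sensor, had 15.7 and 21.3 FPKM, a ratio of 1.36. Egln3 (PHD3), a strongly hypoxia-inducible member of the family, had 0.661 and 2.15 FPKM, from about 23 and 66 fragments, a ratio of 3.26 (2.09 to 5.35). The collagen prolyl 4-hydroxylase subunits, which stabilise the collagen helix, were higher too, P4ha1 with 40.0 and 54.4 FPKM and P4ha2 with 8.38 and 14.5 FPKM. Only Egln3 and P4ha2 of these 4 passed 1.5-fold.

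The remaining HIF targets serve different ends. Bnip3 (chromosome 7, 138890836 to 138909519), a receptor for the removal of mitochondria, had 23.9 and 49.3 FPKM, a ratio of 2.07 (1.83 to 2.34). Ddit4 (chromosome 10, 59949669 to 59951834), which encodes the mTORC1 inhibitor REDD1 and also answers to other stresses, had 21.2 and 48.6 FPKM, a ratio of 2.29 (2.05 to 2.55). Ankrd37 (chromosome 8, 45996902 to 46005707), a small ankyrin repeat protein, had 5.21 and 11.9 FPKM, from about 64 and 128 fragments. Its ratio was 2.29 (1.70 to 3.10). All 3 ratios exceeded 2. Car9, which encodes the carbonic anhydrase of acid-producing tumour cells, was barely expressed, at 0.659 and 2.13 FPKM from about 17 and 49 fragments. Its ratio of 3.23 has an interval of 1.87 to 5.43. Ndrg1, a stress-responsive gene, had 12.6 and 19.9 FPKM. By contrast, Adm, which encodes the vasodilator peptide adrenomedullin, had 33.6 and 34.9 FPKM, and Mxi1, a MYC antagonist, had 5.08 and 5.96 FPKM. The intervals of Adm (0.925 to 1.16) and Mxi1 (0.890 to 1.54) hold 1, so their differences lay within the counting error. These intervals cover no spread between cultures. Of the members described earlier, Slc2a3, Pfkm, Eno2 and Epas1 had intervals wholly below 1.

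Promoters were read for the HIF core. RefSeq promoter windows (GRCm38.p6) matched 32 of the 35 members with 47 windows, all but Slc2a3, Epas1 and Ndrg1, and the 250 bases before each start were searched. The letters ACGTG were sought on either strand, where they read CACGT on the other strand, and so were GCGTG and CACGC. The palindrome CACGTG counts as a match on either strand. Of the 47 windows, 24 held ACGTG, or 51.1%, against 16.6% of all 32851 windows and 21.6% of the windows of genes with a mean of at least 1 FPKM. By gene this was 20 of 32 members, against 25.3% of the 9034 genes with that level. Of the lists of other genes described below, the further HIF targets held ACGTG in 27.0% of 37 windows, or 10 of 25 genes. The citrate cycle list held it in 44.4% of 18 windows, though in only 3 of 13 genes. A high share by window was thus not particular to the members. GCGTG was in 51.1% of the member windows and 44.9% of those of the expressed genes. The member list was built largely of known HIF targets, so its share of ACGTG describes what was chosen. Across all expressed genes with a window, the median log2 ratio was 0.00 for the 2290 with ACGTG and -0.01 for the 6744 without it. Among the members it was 0.78 for the 20 with ACGTG and 0.25 for the 12 with windows but without it, values that share the choice of the list and were not tested. The sequences below are shown for the 5 members with the largest log2 ratios, for Hk2, whose share of its step differed, and for Eno2, whose level was lower and whose window holds no match. They are the 250 bases before the start, 5′ to 3′ on the strand of the gene, with matches to either core in capitals. Ldha has a further window, chr7:46846832-46847081, which holds 0 matches to ACGTG and 1 to GCGTG and is not printed.
Slc16a3, chr11:120948817-120949066, forward strand: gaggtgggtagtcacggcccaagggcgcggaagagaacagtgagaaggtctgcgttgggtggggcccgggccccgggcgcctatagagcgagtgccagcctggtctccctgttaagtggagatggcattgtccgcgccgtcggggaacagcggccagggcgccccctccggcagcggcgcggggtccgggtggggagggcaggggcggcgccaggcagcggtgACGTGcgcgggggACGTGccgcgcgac
Ldha, chr7:46845554-46845803, forward strand: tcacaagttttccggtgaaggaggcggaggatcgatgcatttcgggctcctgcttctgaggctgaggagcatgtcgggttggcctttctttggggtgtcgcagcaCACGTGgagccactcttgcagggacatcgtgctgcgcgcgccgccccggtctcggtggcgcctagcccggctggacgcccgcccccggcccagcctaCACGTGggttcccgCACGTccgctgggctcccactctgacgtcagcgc
Ddit4, chr10:59951771-59952020, reverse strand: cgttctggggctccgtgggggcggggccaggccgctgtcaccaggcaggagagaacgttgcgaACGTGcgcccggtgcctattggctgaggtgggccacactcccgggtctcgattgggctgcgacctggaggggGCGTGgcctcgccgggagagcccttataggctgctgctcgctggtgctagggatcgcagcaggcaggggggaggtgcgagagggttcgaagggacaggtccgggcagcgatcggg
Hif1a, chr12:73907617-73907866, forward strand: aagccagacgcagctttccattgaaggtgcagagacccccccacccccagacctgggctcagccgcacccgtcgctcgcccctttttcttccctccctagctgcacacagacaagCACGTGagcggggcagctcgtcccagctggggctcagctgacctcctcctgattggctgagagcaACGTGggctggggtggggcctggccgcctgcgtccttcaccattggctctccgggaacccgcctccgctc
Ankrd37, chr8:45999851-46000100, reverse strand: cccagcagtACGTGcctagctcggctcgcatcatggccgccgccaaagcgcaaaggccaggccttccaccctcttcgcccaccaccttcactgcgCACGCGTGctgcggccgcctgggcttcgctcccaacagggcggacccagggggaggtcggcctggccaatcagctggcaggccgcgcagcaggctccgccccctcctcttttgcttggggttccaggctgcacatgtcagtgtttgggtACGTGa
Hk2, chr6:82774455-82774704, reverse strand: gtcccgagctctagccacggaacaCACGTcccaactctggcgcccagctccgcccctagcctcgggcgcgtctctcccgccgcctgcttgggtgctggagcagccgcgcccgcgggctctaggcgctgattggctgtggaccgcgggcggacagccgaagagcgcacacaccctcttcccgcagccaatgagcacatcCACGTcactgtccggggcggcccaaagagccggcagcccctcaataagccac
Eno2, chr6:124769674-124769923, reverse strand: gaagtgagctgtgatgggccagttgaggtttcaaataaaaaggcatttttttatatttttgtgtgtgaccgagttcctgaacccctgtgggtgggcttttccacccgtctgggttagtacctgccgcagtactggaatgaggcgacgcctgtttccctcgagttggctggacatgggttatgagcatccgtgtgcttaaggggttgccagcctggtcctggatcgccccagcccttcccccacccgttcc
A match is a run of letters and not a known binding site. Matches also stood in windows of members that were not higher, such as a window of Pfkm with 2, and the single windows of Tpi1 and Gpi1 held none although their levels were slightly higher.

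The neighbouring pathways were described from lists of other genes, chosen with earlier results known. Of 36 further HIF targets, all of which passed the filter, 10 were higher by 1.5-fold and 1 lower, with a median log2 ratio of 0.34. The highest were Ndufa4l2, a mitochondrial protein of hypoxic and mural cells (3.83 and 17.3 FPKM), Fam162a (100.3 and 267 FPKM), the angiogenic factor Vegfa (42.1 and 93.5 FPKM) and the oxidase Ero1l (20.3 and 38.0 FPKM). The lower one, named after its value was seen, was the stress gene Gadd45a (30.5 and 17.0 FPKM). Of the 15 listed genes of the oxygen-sensing machinery, 14 passed the filter and 0 were past 1.5-fold in either direction, a count near the 5.47% and 3.64% of all genes. Their median was 0.10, with Siah2 (0.32), Vhl, Tceb1 and Rbx1 the largest.

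The other glycolytic isoenzymes leaned the other way. Of 18, 9 passed the filter, 0 were higher and 2 lower by 1.5-fold, with a median of -0.17. Over all genes, 5.47% were higher and 3.64% lower. The lower ones were Pgam2, the muscle mutase (2.50 and 0.789 FPKM), and Eno3, the muscle enolase (12.1 and 7.37 FPKM). Pgam2 rests on only about 27 and 7 fragments. Of the other glucose and lactate transporters, 7 of 14 passed the filter, 2 were higher (Slc16a1 and Slc2a6) and 0 lower, with a median of 0.08. Slc2a6 had only 0.426 and 1.60 FPKM, from about 11 and 37 fragments, and passed the filter through HG+PC-NVs.

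Branches off glycolysis were mixed, and their counts past 1.5-fold stand beside 5.47% higher and 3.64% lower over all genes. Of 8 pentose phosphate genes, which supply NADPH and ribose, all passed the filter and 0 were past 1.5-fold, with a median of 0.14. Of 10 polyol and hexosamine genes, routes known to take up excess glucose, 3 were higher and 1 lower. The aldose reductase gene Akr1b3 had 4.11 and 9.50 FPKM, while Sord, which encodes the next enzyme of the polyol route, had 22.5 and 13.7 FPKM. Of the hexosamine genes, Uap1 had 15.4 and 31.3 FPKM and Gfpt2 28.2 and 47.4 FPKM. Among 10 expressed genes of gluconeogenesis and glycogen, 0 were higher and 1 lower, Pck2 with 15.9 and 9.43 FPKM. Among 13 genes of pyruvate dehydrogenase and the pyruvate carrier, 0 were higher and 1, Pdk2, was lower.

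The citrate cycle burns pyruvate in mitochondria. Of its 16 genes, 0 passed 1.5-fold in either direction, near the 5.47% and 3.64% of all genes. Their median log2 ratio was -0.05, beside -0.01 for all genes, with a range of -0.31 to 0.16. The enzymes from hexokinase to lactate dehydrogenase had a median of 0.41 over the 15 that passed the filter and a range of -0.24 to 1.60. The difference between these lists was not tested.

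**Figure D5:**
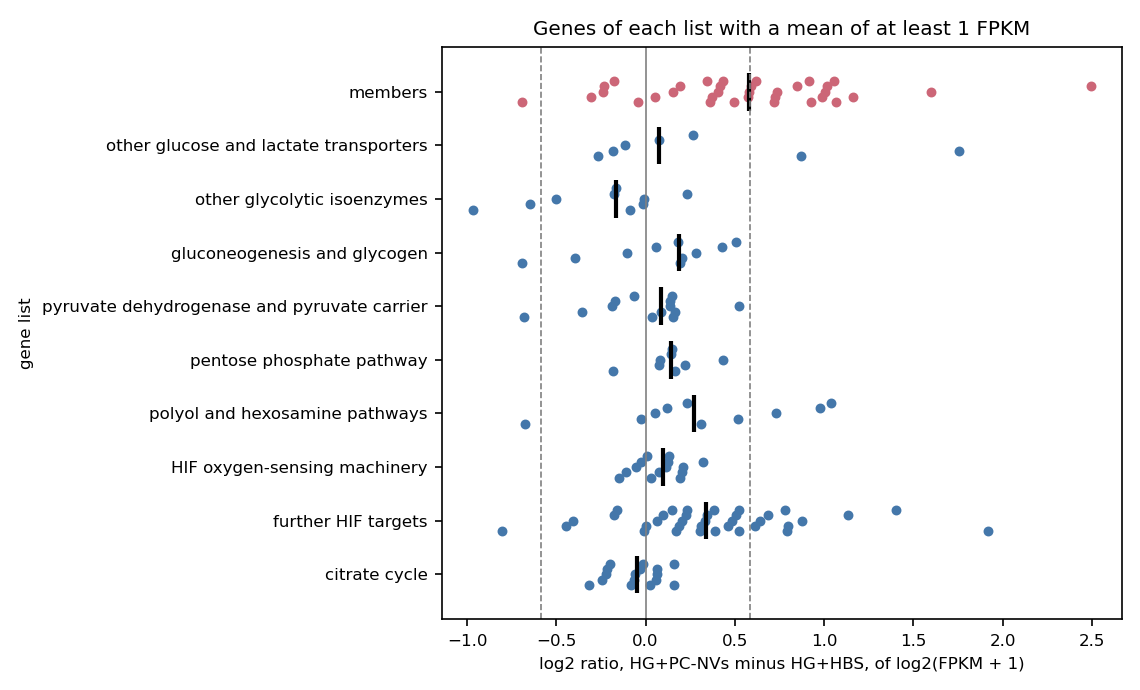
Log2 ratio of each gene with a mean of at least 1 FPKM (points) in the members and 9 lists of neighbouring pathways, with the median as a black bar; the solid line marks 0 and the dashed lines 1.5-fold. The members have a median of 0.58 and further HIF targets 0.34, and the other lists lie between -0.17 and 0.27.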

How the data were processed

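RNA of 2 MCEC cultures was sequenced, 1 library per condition, as poly(A)-selected, stranded, paired-end libraries. After trimming, the authors used TopHat for alignment (mm10), Cufflinks for FPKM and edgeR for a normalization they describe as by quantiles. Versions and the annotation are not given in the sources used here. What the authors deposited is log2(normalized FPKM + 1), in 33299 rows per library. The scale was read from the values, whose maximum is 13.99. Once sorted, the 2 columns differ by up to 0.92 and so do not share their quantiles. They were used as deposited.

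Values were converted to FPKM and summed per symbol. The log2 ratio used a pseudocount of 1 FPKM, and a mean of at least 1 FPKM and 1.5-fold (2-fold as the stricter limit) were required for a call. No test was run. Named genes were all members and, in each other list, at most 4 with the largest absolute ratio, plus defining markers at or near 0. Ldhb, Eno1b, Gadd45a, Egfl7 and Lyz2 fall outside this rule and were named after their values were seen. Members, lists and limits were chosen with earlier results of these data known.

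The worth of 1 fragment was the most frequent low value of FPKM times length in kb, above 0.001 FPKM, over 2192 genes with a single GENCODE M21 transcript longer than 1500 nt. A further peak lay at 1.99 and 2.02 times that value. Fragments per gene used the median length of its basic protein-coding transcripts. Because normalized values were used, these depths are approximate. Of the symbols, 95.6% were in GENCODE M21 (GRCm38, which is mm10), the source of gene coordinates. Alternatives covered normalization, pseudocount, filter and rows. The calculations were tested on simulated data. Software was matplotlib 3.10.9, scipy 1.17.1, pandas 2.3.3, numpy 2.4.6 and Python 3.11.15.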

Additional observations from a re-analysis of the deposited data

How the results depend on the processing

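Settings varied were quantile normalization between the libraries, upper-quartile scaling, median centring, a pseudocount of 0.1 FPKM, no filter, a mean of at least 10 FPKM and the highest row of each symbol. Scaling to the housekeeping genes and ratios without a pseudocount were chosen after seeing the data. Under all of these, 12 to 17 members were higher by 1.5-fold, against 16, and 1 was lower. The median log2 ratio of the members lay between 0.45 and 0.59. Members higher by 2-fold numbered 3 with housekeeping scaling, which shifted the median of all genes to -0.13, against 7. They numbered 5 with quantile normalization or upper-quartile scaling, 6 with a mean of at least 10 FPKM, and 10 with a pseudocount of 0.1 or none. All 15 steps were higher, and 4 by 1.5-fold, with each of the 3 normalizations tried. Quantile normalization shrank the log2 ratios of the abundant enzyme genes by more than the counting error. Tpi1 went from 0.35 to 0.10, Aldoa from 0.36 to 0.17, Pkm from 0.37 to 0.18 and Gpi1 from 0.15 to 0.05. Pgk1 went from 0.85 to 0.65 and Ldha from 1.60 to 1.37. Over the other lists, 3 genes were lower with a mean of at least 10 FPKM, against 6, where fewer genes were tested. Among the further HIF targets, 2 were lower with a pseudocount of 0.1, against 1. The share of Eno1 in its step was 98.6% in HG+PC-NVs with the highest row of each symbol, against 98.4%. For these last changes the cause was not tested. Over all genes, 430 were lower by 1.5-fold, against 699 with a pseudocount of 0.1, 730 without a pseudocount, 730 with housekeeping scaling and 171 with a mean of at least 10 FPKM. Genes higher numbered 647, against 793, 813, 482 and 341. Of 293 alternative ratios of single members, 261 stayed within the counting error of the ratio, 32 did not and 0 were reversed from a called direction. Adm changed sign, to -0.01 with quantile normalization and -0.07 with housekeeping scaling. No paired analysis was possible because each condition has only 1 library, which also left no replicate to leave out. Depth limits Car9, Egln3, Aldoc, Pfkfb3, Pfkfb4, Ankrd37 and Mxi1 most.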
